A study of Mus musculus with 12 samples.

Results

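Cloned mouse morulae of both siRNA treatments, pooled, were set against morulae from in vitro fertilisation (IVF), and the autosomal genes that separated the clones from the IVF embryos were described. All 12 embryos of the series entered the comparison, 8 clones against 4 IVF embryos, and 13101 autosomal genes were tested of 19044 features in the whole table. Each array held the RNA of 1 morula. The IVF embryos were untreated (C57BL/6 x DBA/2) F1 embryos, 2 of them male (embryos 1 and 3) and 2 female (embryos 2 and 4). The clones were made by transfer of Sertoli cell nuclei, carried the same strain label, and were all male. At the pronuclear stage, 6 to 7 h after activation, 4 clones were injected with a control siRNA (siCont) and 4 with an siRNA against Xist (siXist), so no clone was free of an injection and no IVF embryo was injected. All embryos were grown in KSOM medium for 72 h. How many donor animals gave the nuclei is not given in the sources used here. The groups came from the sample titles, and no measured value was used to choose them.

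In somatic cell nuclear transfer, the nucleus of a differentiated cell is placed in an enucleated oocyte, whose cytoplasm must return it to an embryonic program within a few divisions. A normal morula compacts its outer cells and is about to separate the trophectoderm, which forms the placenta, from the inner cell mass. Reprogramming is known to be incomplete in many clones: marks of the donor chromatin and ectopic activity of Xist, the RNA that silences an X chromosome, are among the recorded defects. The Xist siRNA treats the X-linked part of this, which is why the differences common to both siRNA classes were read on the autosomes.

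Probes well above background made up 50.7% to 61.4% of each array, no spot was saturated, and the processed signal at the 75th percentile of an array ranged from 506 to 1118. Levels are given in log2 relative to that percentile, so a gene at 0 was as bright as the probe at the 75th percentile of its array. Of 8 morula and inner cell mass markers, 7 were tested and above background in the IVF embryos, and 6 of them in at least 6 of the 8 clones. The other one, Nanog, was not analysed here. Sertoli cell markers gave a summed linear level of 2.28 to 4.13 in IVF embryos and 0.847 to 4.11 in clones, over 8 of 12 markers, with Amh, Wt1, Inha and Fshr not kept. Cumulus cell markers gave 115 to 156 in IVF embryos and 56.3 to 181 in clones (5 of 8 kept), and sperm markers 0.0999 to 0.331 and 0.0859 to 0.702 (5 of 7 kept). The summed ranges of the groups overlapped in each of these 3 lists. A sum follows its brightest kept markers, and several markers were not kept. The overlap therefore does not show whether RNA of these cells was present or differed between the groups. The part of these cells in the results below was not tested. Each of the 3 classes had its own slide and scan, which therefore cannot be told apart from the class. The clones included no female, so sex differed between the groups as well. In whole embryos, fewer cells of a type and less RNA per cell cannot be told apart.

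Cloned and IVF morulae differed in autosomal genes of several kinds, with Cd81, Id1 and Ldha among the genes higher in clones and Rpl39l, Lin28b and Aco1 among the lower. In limma's moderated test on 8 against 4 embryos, 71 autosomal genes were higher in clones (0.542% of those tested) and 51 were lower (0.389%), at a Benjamini-Hochberg adjusted p under 0.05. Together these 122 genes, called below, made up 0.931% of the 13101. Of the genes named first, Id1, Ldha and Aco1 kept their call without any single embryo, and Cd81, Rpl39l and Lin28b did not. With the male IVF embryos alone as controls, only Id1 and Ldha among them were called. Under the authors' deposited scaling, which moved the median difference over all autosomal genes to -0.65, 22.03% of the 59 called genes were higher, against 58.2% here. Genes whose 8 clone values all lay outside the 4 IVF values numbered 443 (3.38%), 176 higher (1.34%) and 267 lower (2.04%). Both conditions held for 106 genes (0.809%), 67 higher (0.511%) and 39 lower (0.298%). The directions differed in brightness. Of the 67 higher genes, 52 were above background in every class and 15 were dim in the IVF embryos. Of the 39 lower genes, 14 were above background in every class and 25 were dim in clones. Over all tested autosomal genes, 83.4% were above background in every class. A gene dim on 1 side was kept only through a class in which it was bright, so the counts of such genes rest partly on the filter. The median difference over all tested autosomal genes was -0.09, and the median SD of a gene was 0.81 among clones and 0.47 among IVF embryos. At an unadjusted p under 0.05, 1746 genes (13.3%) differed, 814 upward (6.21%) and 932 downward (7.11%).

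**Figure D1:**
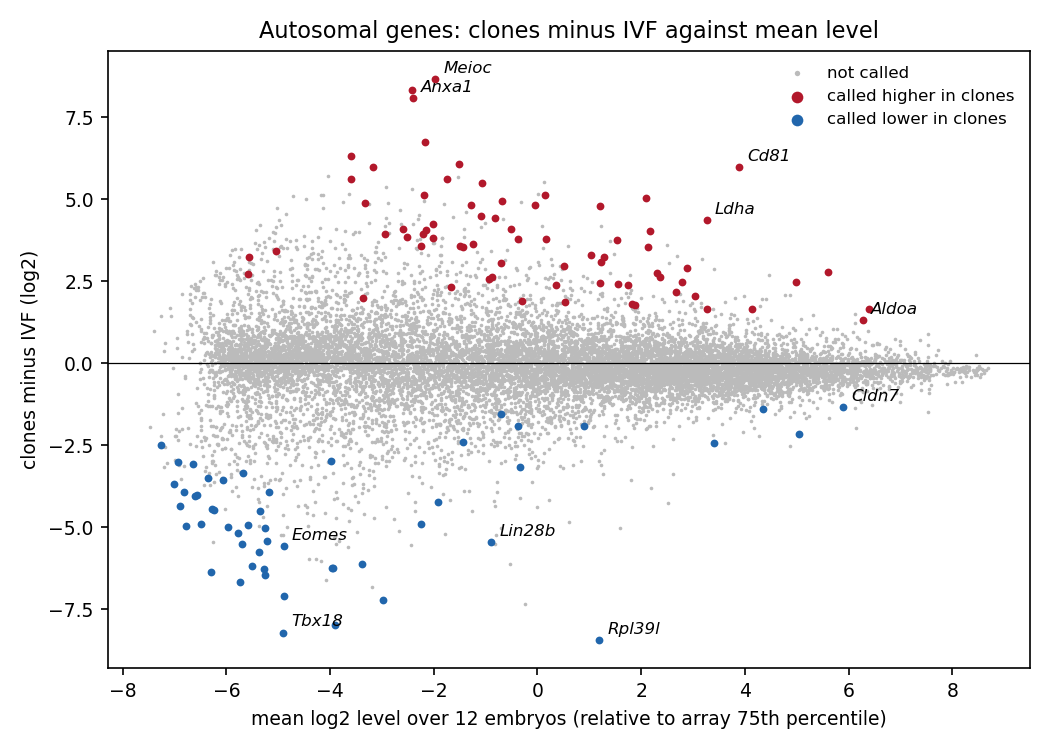
Difference of the 8 clones and the 4 IVF embryos (y axis, log2) against the mean level over the 12 embryos (x axis, log2 relative to the array 75th percentile) for 13101 autosomal genes; each point is a gene. The 71 genes called higher spread over all levels, whereas most of the 51 called lower lie at low mean levels on the left.

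Between siXist and siCont clones, limma called 1 autosomal gene (0.00763%), 2300002M23Rik, and 1545 (11.8%) had an unadjusted p under 0.05. None of the 122 genes called between clones and IVF embryos was called between the siRNA classes, but these genes were chosen with the classes pooled, which favours genes with a small gap between them, so this count supports nothing. The class means lay within 1 of each other in 59 of the 71 higher and 39 of the 51 lower genes, and the widest gaps (siXist minus siCont) were -2.44 in Oas1a, -2.09 in Wfdc15a and -2.07 in F2r. With 4 clones of 1 class against the same IVF embryos, 63 genes were called for siCont and 75 for siXist, and 48 and 58 of the 122 were among them. With any single embryo left out, 41 of the 122 calls held in all 12 fits, 24 higher and 17 lower. With the 2 male IVF embryos alone as controls, 24 genes were called, 22 of them among the 122. All 122 kept their direction, which could not turn in the 106 genes without overlap.

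Several glycolytic genes were higher in the clones, among them the enzyme that commits sugar to the pathway and the one that ends it in lactate. Of 25 tested genes of glucose uptake, glycolysis and pyruvate handling, 5 were called higher and 0 lower (20%, against 0.931% of all genes), and the median difference was 1.37, against -0.09 over all genes. The called genes were Pfkl, Aldoa, Tpi1, Pkm and Ldha. This list and those below were chosen with earlier results of these data known, so no share of calls is a test of its list. With no adjustment, 11 of the 25 were higher at p under 0.05 and 2 lower, where 6.21% of all autosomal genes were higher and 7.11% lower. The median level of the list ran from 1.41 to 3.50 in the IVF embryos and from 3.38 to 4.40 in the clones, so the lowest clone overlapped the highest IVF embryo.

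The 250 bases before the annotated start of each of the 5 genes are shown because these genes moved together. They come from RefSeq on GRCm38.p6, with the first entry of a gene where it had several (Ldha 2, Pkm 2, Aldoa 3). Capitals mark ACGTG and GCGTG on either strand, the letters bound by hypoxia-inducible factors, and so also the E-box CACGTG, which holds ACGTG on both strands.
Ldha, chr7:46845554-46845803, plus strand: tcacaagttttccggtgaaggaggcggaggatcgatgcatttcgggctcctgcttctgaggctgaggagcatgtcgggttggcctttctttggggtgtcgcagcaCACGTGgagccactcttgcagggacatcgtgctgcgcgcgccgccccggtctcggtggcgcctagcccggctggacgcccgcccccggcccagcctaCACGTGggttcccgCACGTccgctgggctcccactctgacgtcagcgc
Pfkl, chr10:78009808-78010057, minus strand: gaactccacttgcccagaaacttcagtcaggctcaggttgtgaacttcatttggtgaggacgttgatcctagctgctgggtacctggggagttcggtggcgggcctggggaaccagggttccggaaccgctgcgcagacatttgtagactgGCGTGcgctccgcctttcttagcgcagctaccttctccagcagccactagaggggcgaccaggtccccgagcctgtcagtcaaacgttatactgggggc
Tpi1, chr6:124814159-124814408, minus strand: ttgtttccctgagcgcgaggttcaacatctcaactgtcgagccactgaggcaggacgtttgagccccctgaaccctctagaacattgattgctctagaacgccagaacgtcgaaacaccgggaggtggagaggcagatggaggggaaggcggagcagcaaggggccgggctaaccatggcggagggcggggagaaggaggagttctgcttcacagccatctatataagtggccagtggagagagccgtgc
Pkm, chr9:59656326-59656575, plus strand: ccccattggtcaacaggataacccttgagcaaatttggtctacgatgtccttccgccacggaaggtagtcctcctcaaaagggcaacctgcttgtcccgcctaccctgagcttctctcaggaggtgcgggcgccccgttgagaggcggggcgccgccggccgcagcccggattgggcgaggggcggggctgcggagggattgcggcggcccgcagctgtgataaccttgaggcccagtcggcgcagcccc
Aldoa, chr7:126800448-126800697, minus strand: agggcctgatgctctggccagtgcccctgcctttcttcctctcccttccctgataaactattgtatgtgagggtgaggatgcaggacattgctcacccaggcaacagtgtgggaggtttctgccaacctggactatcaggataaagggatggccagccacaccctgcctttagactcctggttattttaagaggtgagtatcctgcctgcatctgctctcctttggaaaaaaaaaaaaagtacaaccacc
The letters occurred at 3 places before Ldha, 2 of them CACGTG, at 1 place before Pfkl, and at none before Tpi1, Pkm and Aldoa. They were found before 5622 (53.8%) of 10456 tested genes with such an entry and before 31 (54.4%) of the 57 called-higher genes with one. CACGTG was found before 8.25% and 7.02% of them. Of the 38 tested genes of the glycolysis and hypoxia lists with an entry, called or not, 30 (78.9%) held ACGTG or GCGTG, and 44.7% held ACGTG, against 21.0% of all. These are letters in a window and say nothing of binding.

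Ldha, the lactate dehydrogenase subunit that turns pyruvate into lactate, stood at 2.23, 0.80, 1.03 and -2.66 in IVF embryos 1 to 4. In the 8 clones it had a lowest level of 4.04, a median of 4.58 and a highest of 5.48. Every clone was above every IVF embryo, and IVF embryo 4 lay below the other 3. The clones were 4.37 higher (SE 0.71, 20.7-fold, adjusted p = 0.0141), and a further probe for the gene gave 4.72. The call held without any single embryo and with the male IVF embryos alone, where the difference was 3.09. It was lost in limma's test with siCont clones only (adjusted p = 0.0548), with siXist clones only (0.0543) and on the authors' deposited values (0.071).

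Tpi1, triosephosphate isomerase, stood at 0.99, 1.00, 1.71 and 0.06 in the IVF embryos and at 2.96, 3.84 and 4.997 as the lowest, median and highest clone. The groups did not overlap, and the difference was 2.91 (SE 0.41, adjusted p = 0.00754). Pfkl, the liver-type subunit of phosphofructokinase, which sets the pace of glycolysis, stood at -4.30, -4.29, -3.76 and -6.21 in the IVF embryos, the last not well above background. Its clones ran from -1.63 over -1.11 to -0.36. The groups did not overlap although the gene was dim throughout, with a difference of 3.58 (SE 0.44, adjusted p = 0.0029).

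Pkm, pyruvate kinase of muscle and embryo, stood at 0.71, 1.40, 1.06 and -0.41 in IVF embryos and at 2.03, 2.41 and 2.999 in clones. Aldoa, aldolase A, stood at 5.41, 5.63, 5.44 and 5.10 in IVF embryos and at 6.26, 6.87 and 7.01 in clones. Neither gene overlapped between the groups, and both moved less than the 3 genes above: 1.78 (SE 0.34, adjusted p = 0.0305) for Pkm and 1.32 (SE 0.25, adjusted p = 0.031) for Aldoa. Leaving out 1 embryo raised the adjusted p above 0.05 for 8 of 12 embryos in each, to at most 0.093 for Pkm and 0.114 for Aldoa. For Aldoa these were all 4 IVF embryos, siCont clone 4 and siXist clones 1, 2 and 4, and for Pkm IVF embryos 1, 3 and 4, siCont clones 2 and 4 and siXist clones 1, 2 and 3.

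Other genes of the list pointed up without passing the test. Gapdh was 1.97 higher (SE 0.60, adjusted p = 0.168), the glucose transporters Slc2a1 and Slc2a3 were 2.08 (SE 0.51, adjusted p = 0.1003) and 1.52 higher (SE 0.52, adjusted p = 0.224), and Pdk1, the kinase that keeps pyruvate out of the mitochondrion, was 3.04 higher (SE 1.46, adjusted p = 0.404). The hexokinase Hk2 differed by 0.21 (SE 0.39) and the mutase Pgam1 by -0.07 (SE 0.32). The 2 genes on the other side were Slc16a1, a monocarboxylate transporter that brings in lactate and pyruvate (-1.49, SE 0.38, adjusted p = 0.108), and Dlat, a subunit of pyruvate dehydrogenase (-1.23, SE 0.34, adjusted p = 0.138). The 65 tested genes of the respiratory chain held no call, and their median difference was -0.12. At an unadjusted p under 0.05, 0 of the 65 were higher and 1 was lower, beside 6.21% and 7.11% of all autosomal genes. Several glycolytic genes have processed copies elsewhere in the genome that a probe may also bind. On the authors' deposited values no gene of the 25 passed limma's test (without adjustment, 3 upward and 3 downward at p under 0.05), and the list median was 0.81. The list held 3 calls with the slide as a random block, 2 with either siRNA class alone or with the male IVF embryos as controls, and 3 without any of IVF embryos 1, 3 and 4, siCont clone 4 and siXist clones 1 and 2.

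Genes of the response to low oxygen, which switches on glycolysis among much else, were also mostly higher, but only 1 passed the test. Of 18 tested genes of the list, 1 was called (5.56%, against 0.931% of all autosomal genes), and 15 were higher and 3 lower. The median difference was 0.82, against -0.09 over all genes. At an unadjusted p under 0.05, 9 were higher and none lower, where 6.21% of all autosomal genes were higher and 7.11% lower. The median level of the list was 0.10 to 0.51 in IVF embryos and 1.51 to 3.67 in clones, with no overlap. Bhlhe40, a helix-loop-helix repressor induced by low oxygen, stood at -5.60, -3.24, -5.48 and -4.66 in IVF embryos and at -3.50, 1.12 and 3.43 in clones. The lowest clone fell inside the IVF range, and the difference was 5.50 (SE 1.01, adjusted p = 0.0272), which lost the call (adjusted p up to 0.107) without any 1 of IVF embryos 1, 3 and 4, siCont clones 2 and 4 and siXist clones 1, 2 and 3. With the slide as a random block no member of this list was called.

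The transducers of the signal did not pass the test. Hif1a differed by -1.17 (SE 0.91, adjusted p = 0.63), Epas1 by 0.26 (SE 0.30) and Arnt by 0.51 (SE 0.60). Among their known targets, Hmox1, heme oxygenase 1, was 3.57 higher (SE 0.76, adjusted p = 0.0532), Vegfa, the vessel growth factor, 4.92 higher (SE 1.30, adjusted p = 0.115), Egln3, a prolyl hydroxylase that marks Hif1a for decay, 3.60 higher (SE 0.98, adjusted p = 0.122) and Adm, adrenomedullin, 2.99 higher (SE 0.78, adjusted p = 0.109). Car9 was at -1.10 (SE 0.60). Under the authors' scaling the list median was 0.26, with 10 members higher and 8 lower.

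**Figure D2:**
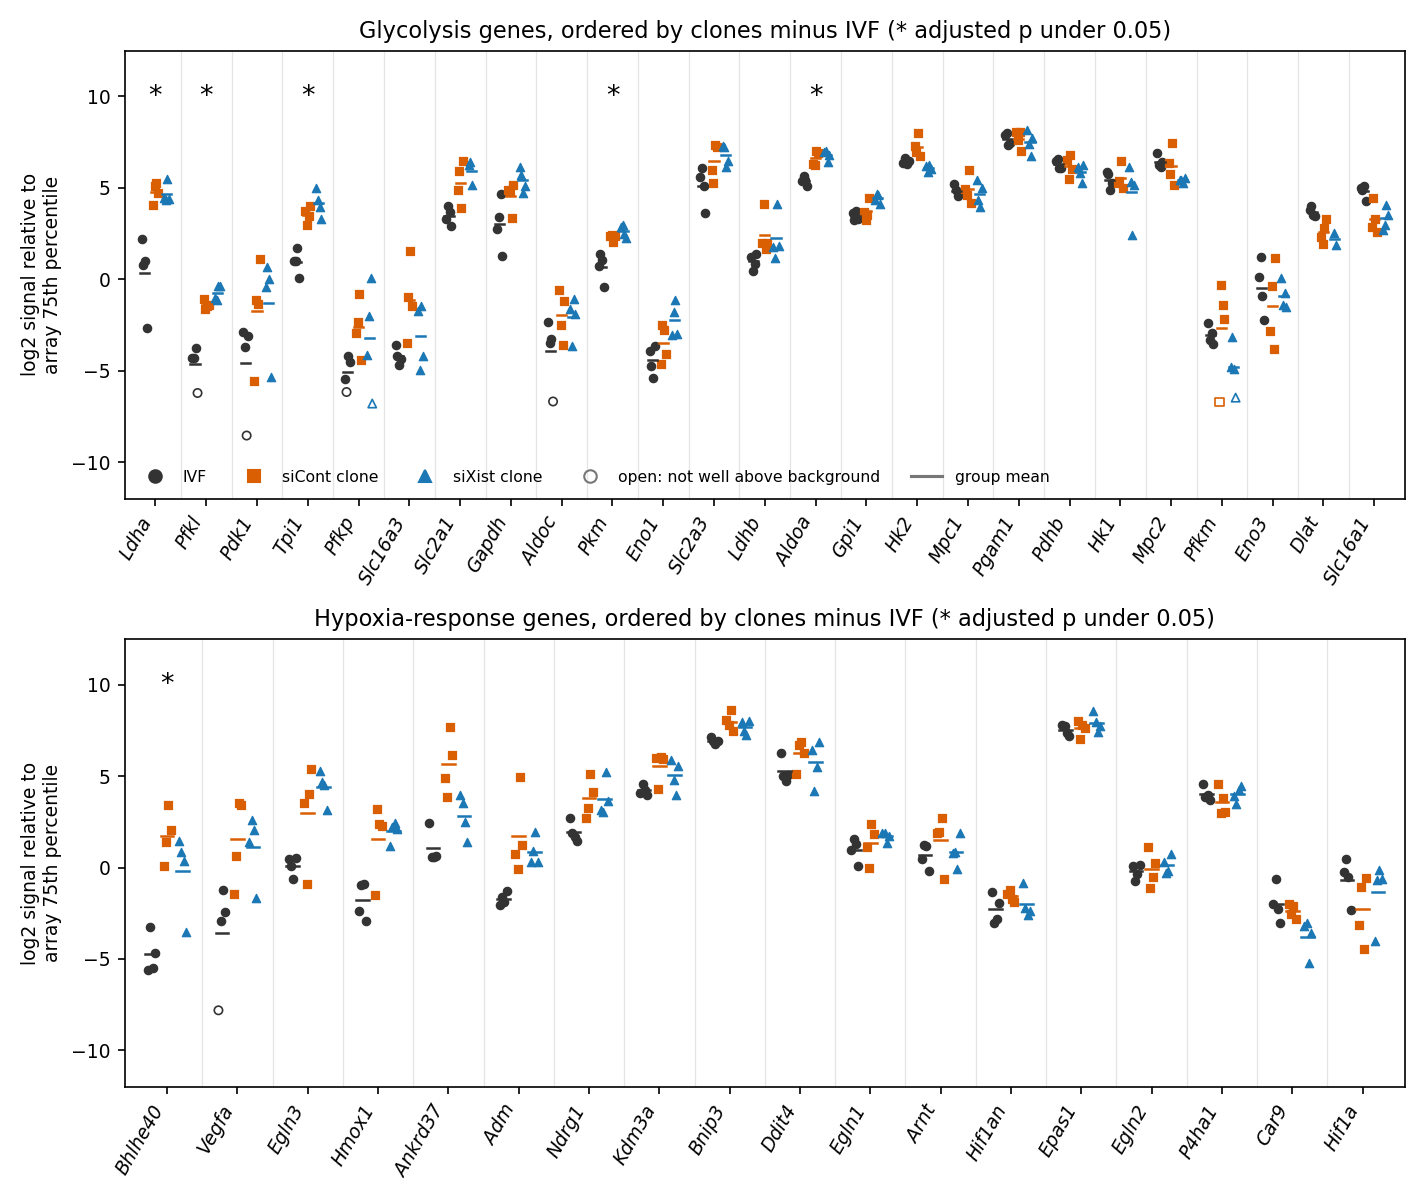
Level of each tested glycolysis gene (top, 25 genes) and hypoxia-response gene (bottom, 18 genes) in every embryo, in log2 relative to the array 75th percentile, with genes ordered by the difference of clones and IVF; circles are IVF, squares siCont and triangles siXist embryos, open symbols are not well above background, bars are group means. Asterisks mark the 5 and 1 called genes, and in these genes every clone lies above every IVF embryo except the lowest Bhlhe40 clone.

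Among called genes that were measured in every class and did not overlap between the groups, the largest rises were in genes of mixed roles, at the cell surface, in epithelia and in signalling. Bhlhe40 (5.50) is not among them because of its overlap. The 15 largest differences under these conditions, from 3.83 to 5.99 and with Ldha from the glycolysis list, were found in Cd81, Adgrl2, F2r, Srd5a1, Krt19, Id1, Efs, Ldha, Krtdap, Ppl, Ly86, Hspb1, Tef, Asphd2 and Ank2. Cd81, a tetraspanin of the cell surface, stood at 0.74, 1.93, 0.29 and -3.40 in IVF embryos and at 2.07, 6.34 and 7.41 in clones. The lowest clone, a siCont embryo, lay just above the highest IVF embryo. The difference was 5.99 (SE 1.13, 63.4-fold, adjusted p = 0.0302), and it missed the threshold without 9 of the 12 embryos (adjusted p at most 0.0912), all but IVF embryo 2 and siCont clones 1 and 3.

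Id1, an inhibitor of helix-loop-helix factors and a classic target of BMP signalling, stood at -1.09, -3.28, -2.32 and -1.24 in IVF embryos and at 1.58, 2.87 and 3.74 in clones. It separated the groups with a gap wider than the spread of either, was 4.79 higher (SE 0.54, adjusted p = 0.00225), and was called in all 27 alternative fits. A further Id1 probe gave 4.83. Adgrl2, an adhesion receptor of the latrophilin family, was 5.13 higher (SE 0.85, adjusted p = 0.0157), and F2r, the thrombin receptor, 5.04 higher (SE 0.98, adjusted p = 0.035). F2r had means of 4.82 in siCont and 2.75 in siXist clones, a difference of -2.07 between them with an unadjusted p of 0.0651, beside -1.25 in IVF embryos. Ly86, the partner of an immune receptor of the Toll-like type, was 4.07 higher (SE 0.57, adjusted p = 0.00754).

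Epithelial structure genes were among these. Krt19, a keratin of simple epithelia and of the trophectoderm, stood at -2.89, -4.17, -4.46 and -1.57 in IVF embryos and at -1.36, 1.96 and 4.21 in clones. The lowest clone and the highest IVF embryo nearly met, and the difference of 4.83 (SE 0.97, adjusted p = 0.0392) missed 0.05 without 10 of the 12 embryos, all but siCont clone 3 and siXist clone 4 (adjusted p at most 0.141). Ppl, periplakin of the cell cortex, was 4.10 higher (SE 0.61, adjusted p = 0.00983), and Krtdap, a secreted protein of differentiating keratinocytes, 4.26 higher (SE 0.69, adjusted p = 0.0141). Ppl kept its call without any single embryo, and Krtdap missed it without IVF embryo 4 (adjusted p = 0.0586).

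Of the stress genes, Hspb1, a small heat shock protein, stood at 0.39, 0.01, -0.93 and -1.47 in IVF embryos and at 0.64, 4.07 and 5.01 in clones. It was 4.02 higher (SE 0.77, adjusted p = 0.0317), with means of 2.60 in siCont and 4.45 in siXist clones, and missed 0.05 without 10 of the 12 embryos, all but siCont clones 1 and 3 (at most 0.114). Srd5a1, a steroid reductase, was 4.95 higher (SE 0.94, adjusted p = 0.0305), Tef, a leucine zipper factor of the daily clock, 3.96 higher (SE 0.70, adjusted p = 0.0237), and Ank2, an ankyrin that ties membrane proteins to the cytoskeleton, 3.83 higher (SE 0.63, adjusted p = 0.0149). Asphd2 was 3.86 higher (SE 0.47, adjusted p = 0.00297) and varied little in IVF embryos, from -5.33 to -4.92. Efs, an adaptor of Src family kinases, was 4.43 higher (SE 0.88, adjusted p = 0.037). Leaving out 1 embryo ended the calls of Efs (all but siCont clones 1 and 3, adjusted p at most 0.119), F2r (all but siCont clone 1 and siXist clones 1 and 4, at most 0.124), Srd5a1 (IVF embryos 2 and 3, siCont clones 2 and 4, siXist clones 1 and 3, at most 0.0689), Tef (IVF embryos 2, 3 and 4, at most 0.0976) and Ank2 (IVF embryo 2, 0.0509). The calls of Adgrl2, Id1, Ly86 and Asphd2 held without any single embryo.

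**Figure D3:**
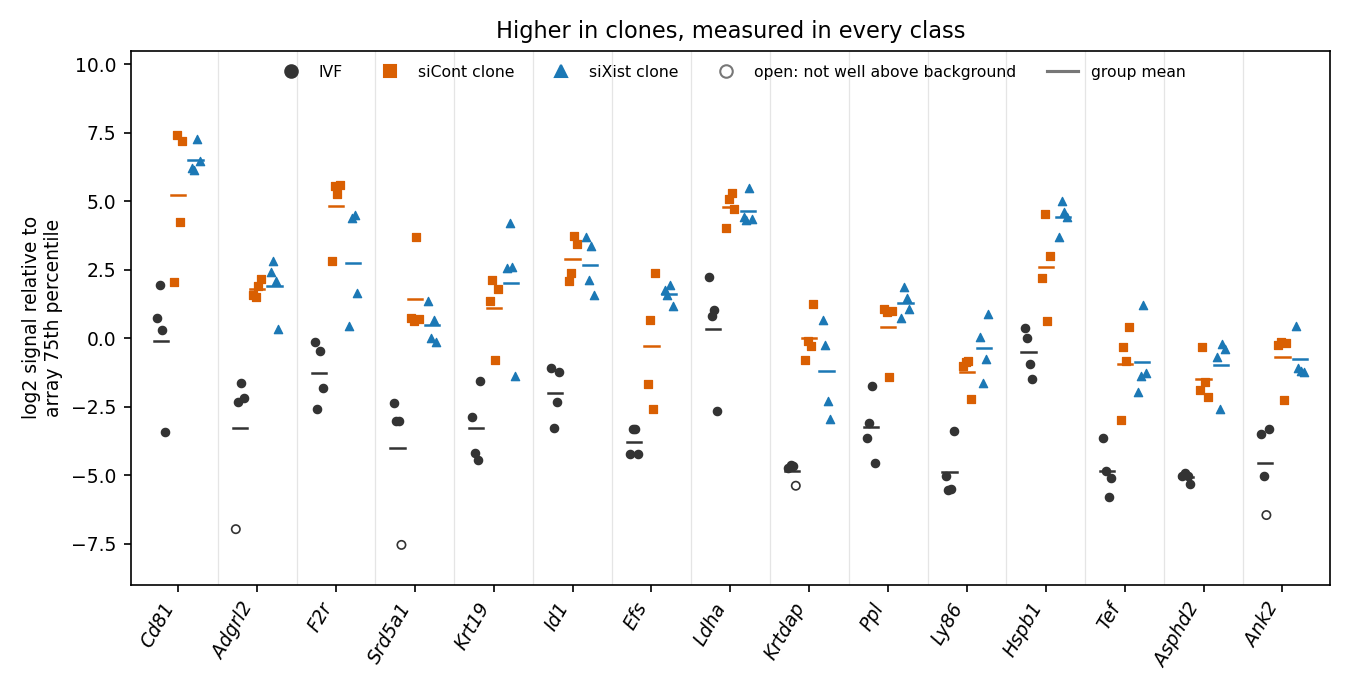
Level in every embryo of the 15 called genes with the largest rises in clones among those above background in every class and without overlap, in log2 relative to the array 75th percentile; symbols as named in the key, bars are group means. In each gene all 8 clones lie above all 4 IVF embryos, with the narrowest gaps in Cd81, Krt19 and Hspb1.

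Genes lower in clones and measured in every class numbered 14, with differences from -1.34 to -8.43: Rpl39l, Lin28b, Crtam, AI662270, Shtn1, Ccl17, Aco1, Fbxo3, Arpc1b, Rac3, Hs1bp3, Wdr20rt, Lap3 and Cldn7. Rpl39l, a paralogue of a ribosomal protein best known from male germ cells, was bright and even in IVF embryos, at 6.76, 7.13, 6.56 and 6.76. In clones it ran from -8.12 over -0.27 to 1.72, and 2 of the 8 clones were not well above background. No clone came near the IVF level, and the difference was -8.43 (SE 1.74, adjusted p = 0.0473). The wide spread of the clones left it close to the threshold, which it missed without 10 of the 12 embryos, all but siCont clone 4 and siXist clone 2 (adjusted p at most 0.13). A further probe was lower in clones as well. The other 76 tested genes of cytosolic ribosomal proteins held no call, and the median of the list of 77 was -0.20.

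Lin28b, an RNA-binding protein that blocks maturation of let-7, stood at 1.95, 2.20, 2.81 and 4.03 in IVF embryos and at -5.69, -2.75 and -0.58 in clones. Every clone was below every IVF embryo, and 1 was not well above background. The difference was -5.46 (SE 0.89, adjusted p = 0.0141), and the adjusted p was 0.0523 without IVF embryo 3 and 0.0595 without embryo 4. Aco1, the cytosolic aconitase that doubles as an iron sensor, fell from levels of 4.90, 5.48, 4.99 and 4.73 to 1.84, 2.47 and 3.76. This was a difference of -2.43 (SE 0.37, adjusted p = 0.0106), and its call held without any single embryo.

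Cldn7, Arpc1b and Rac3, which act in cell contacts and the actin cytoskeleton, fell by smaller amounts. Cldn7, a claudin of tight junctions, stood at 6.71, 6.79, 6.79 and 6.87 in IVF embryos and at 4.63, 5.43 and 6.05 in clones. It was among the most even genes in IVF embryos, and it fell by 1.34 (SE 0.27, adjusted p = 0.0438). Arpc1b, a subunit of the Arp2/3 complex that branches actin, stood at 6.21, 6.66, 6.32 and 6.73 and at 3.33, 4.30 and 5.71, and fell by 2.15 (SE 0.44, adjusted p = 0.0471). Rac3, a small GTPase of the cytoskeleton, fell by 1.92 (SE 0.32, adjusted p = 0.0168). Of 27 tested genes of compaction and cavitation, Cldn7 was the only call (3.70%), and the list median was -0.15. Ezr, ezrin of the microvilli, was at -1.85 (SE 0.45, adjusted p = 0.0874), and Cldn6 at 2.31 (SE 0.79, adjusted p = 0.22).

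The remaining genes of this set were of mixed roles. Shtn1, shootin of neuronal polarity, fell by 3.17 (SE 0.54), Crtam, a receptor of lymphocytes, by 4.91 (SE 0.92), Ccl17, a chemokine, by 2.96 (SE 0.58), Fbxo3, a substrate receptor for ubiquitination, by 2.40 (SE 0.46), Lap3, an aminopeptidase, by 1.39 (SE 0.29), and AI662270, Hs1bp3 and Wdr20rt by 4.21, 1.91 and 1.55. Their adjusted p-values ran from 0.0178 to 0.0471. Wdr20rt is a retrotransposed copy of another gene, whose transcript its probe may share. Leaving out each embryo in turn ended the calls of Cldn7 (all but siXist clones 3 and 4, adjusted p at most 0.134), Arpc1b (all but siCont clone 1 and siXist clone 1, at most 0.143), Lap3 (all but siXist clone 4, at most 0.152) and Ccl17 (all but IVF embryo 3, siCont clone 4 and siXist clone 3, at most 0.122). Crtam was lost without IVF embryos 1, 2 and 3, siCont clone 2 and siXist clones 2, 3 and 4 (at most 0.114), Fbxo3 without any IVF embryo, siCont clones 2 and 4 and siXist clone 4 (at most 0.124) and Wdr20rt without any IVF embryo, siCont clones 2 and 4 and siXist clone 2 (at most 0.0998). Hs1bp3 was lost without IVF embryos 1, 2 and 3, siCont clone 2 and siXist clone 3 (at most 0.12), AI662270 without any IVF embryo (at most 0.0899), Shtn1 without IVF embryos 1, 3 and 4 (at most 0.0689) and Rac3 without IVF embryos 1 and 4 (at most 0.0685).

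A further set of genes was above background on 1 side only, so that its differences are bounds or rest on few measured embryos. For a gene below background on all arrays of a group, "at least" is the brighter mean over the dim group's arrays raised to the lowest signal measured on each. Where some arrays of the dim group measured a gene, the fitted difference is given, which rests partly on unmeasured values, and beside it the difference with dim arrays raised in the same way, called floored. Meioc, a germ cell factor needed for meiotic prophase, stood at -7.68, -7.82, -8.14 and -7.43 in IVF embryos, all not well above background, and at -1.54, 0.94 and 2.30 in clones. All 8 clones were above background and none came near the IVF values. Meioc was at least 120.1-fold higher in clones (adjusted p = 2.94e-05), with means of 1.28 in siCont and 0.54 in siXist clones, and was called in all 27 alternative fits.

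Plxdc2, a plexin-domain membrane protein, was likewise below background in the 4 IVF embryos and at -1.84, 0.37 and 2.05 in clones, at least 82.1-fold higher (adjusted p = 0.000225), and called in all 27 alternative fits. Anxa1, annexin A1 of inflammation control, was below background in the 4 IVF embryos and at -6.28, 0.93 and 4.09 in clones, at least 78.4-fold higher (adjusted p = 0.0268). Its call was lost without any of the 4 IVF embryos (adjusted p at most 0.0923). Ppp1r36 was at least 22.7-fold higher (adjusted p = 0.00754). Tmem54 and Cyp2j6, a P450 epoxygenase with close relatives in its cluster, were measured in 1 of 4 IVF embryos and were 5.48 and 4.57 higher floored (6.09 fitted, adjusted p = 0.0238, and 6.00 fitted, adjusted p = 0.00284). Measured in 2 of 4 were Aldh3b2 (4.98 floored, 5.62 fitted, adjusted p = 0.0191), Vstm5 (4.84 and 5.12, adjusted p = 0.00284), Cidec, a lipid droplet protein (4.48 and 4.83, adjusted p = 0.0471), and Serping1, the C1 inhibitor (4.42 and 4.49, adjusted p = 0.0118). The value of Serping1 rests on 3 IVF embryos, since the spot of embryo 3 was marked as an outlier. The calls of Vstm5, Cyp2j6 and Ppp1r36 held without any single embryo. Those of Tmem54 (IVF embryos 1, 2 and 4, adjusted p at most 0.0809), Aldh3b2 (IVF embryos 1, 2 and 3, at most 0.0745), Serping1 (IVF embryo 2, 0.0505) and Cidec (all but IVF embryo 3 and siXist clone 4, at most 0.155) did not.

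In the opposite direction, genes were measured in the IVF embryos and below background in 4 to 8 of the 8 clones. Gml2 stood at -1.16, -0.21, -0.35 and -2.64 in IVF embryos and at -8.03, -7.29 and -6.77 in clones, all below background, at least 35.3-fold lower (adjusted p = 3.82e-05). Gml, its neighbour in sequence, was at least 12.03-fold lower, and their probes may share transcripts. Isl1, a LIM homeobox factor, stood at -0.35, -1.08, -1.29 and -1.06 in IVF embryos and at -8.57, -7.94 and -4.96 in clones, 1 of them above background, with a floored difference of -5.15 (fitted -6.47, SE 0.65, adjusted p = 0.000795). Tbx18, a T-box factor, stood at 1.05, 0.77, 0.61 and -0.14 in IVF embryos and at -8.99, -8.33 and -2.73 in clones, with siXist clone 4 alone above background (floored -6.33, fitted -8.21, SE 0.97, adjusted p = 0.00284). Gsc, goosecoid, was measured in 4 of 8 clones (floored -5.56, fitted -6.22, SE 0.82, adjusted p = 0.00511). Eomes, a T-box factor of the trophoblast, stood at -0.39, -1.50, -1.15 and -1.69 in IVF embryos and at -8.57, -7.04 and -3.55 in clones, 2 of them above background. None of these genes overlapped between the groups, and Eomes had a floored difference of -4.60 (fitted -5.57, SE 0.82, adjusted p = 0.00968).

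Other genes of this group were C8b, a complement component (floored -4.80, fitted -6.67, 1 of 8 clones measured, adjusted p = 0.00048), Wfdc15a (-6.92 and -7.20, 4 of 8, adjusted p = 0.00566), H2-Q1, of a cluster of near-identical class I genes (-5.62 and -6.11, 3 of 8, adjusted p = 0.0296), and Asz1, a germ cell protein of the piRNA pathway. The calls of Gml2, Isl1, Tbx18, Gsc, Eomes, C8b and Wfdc15a held without any single embryo. H2-Q1 missed 0.05 without any 1 of the IVF embryos, siCont clone 2 and siXist clones 1 and 3 (adjusted p at most 0.108).

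**Figure D4:**
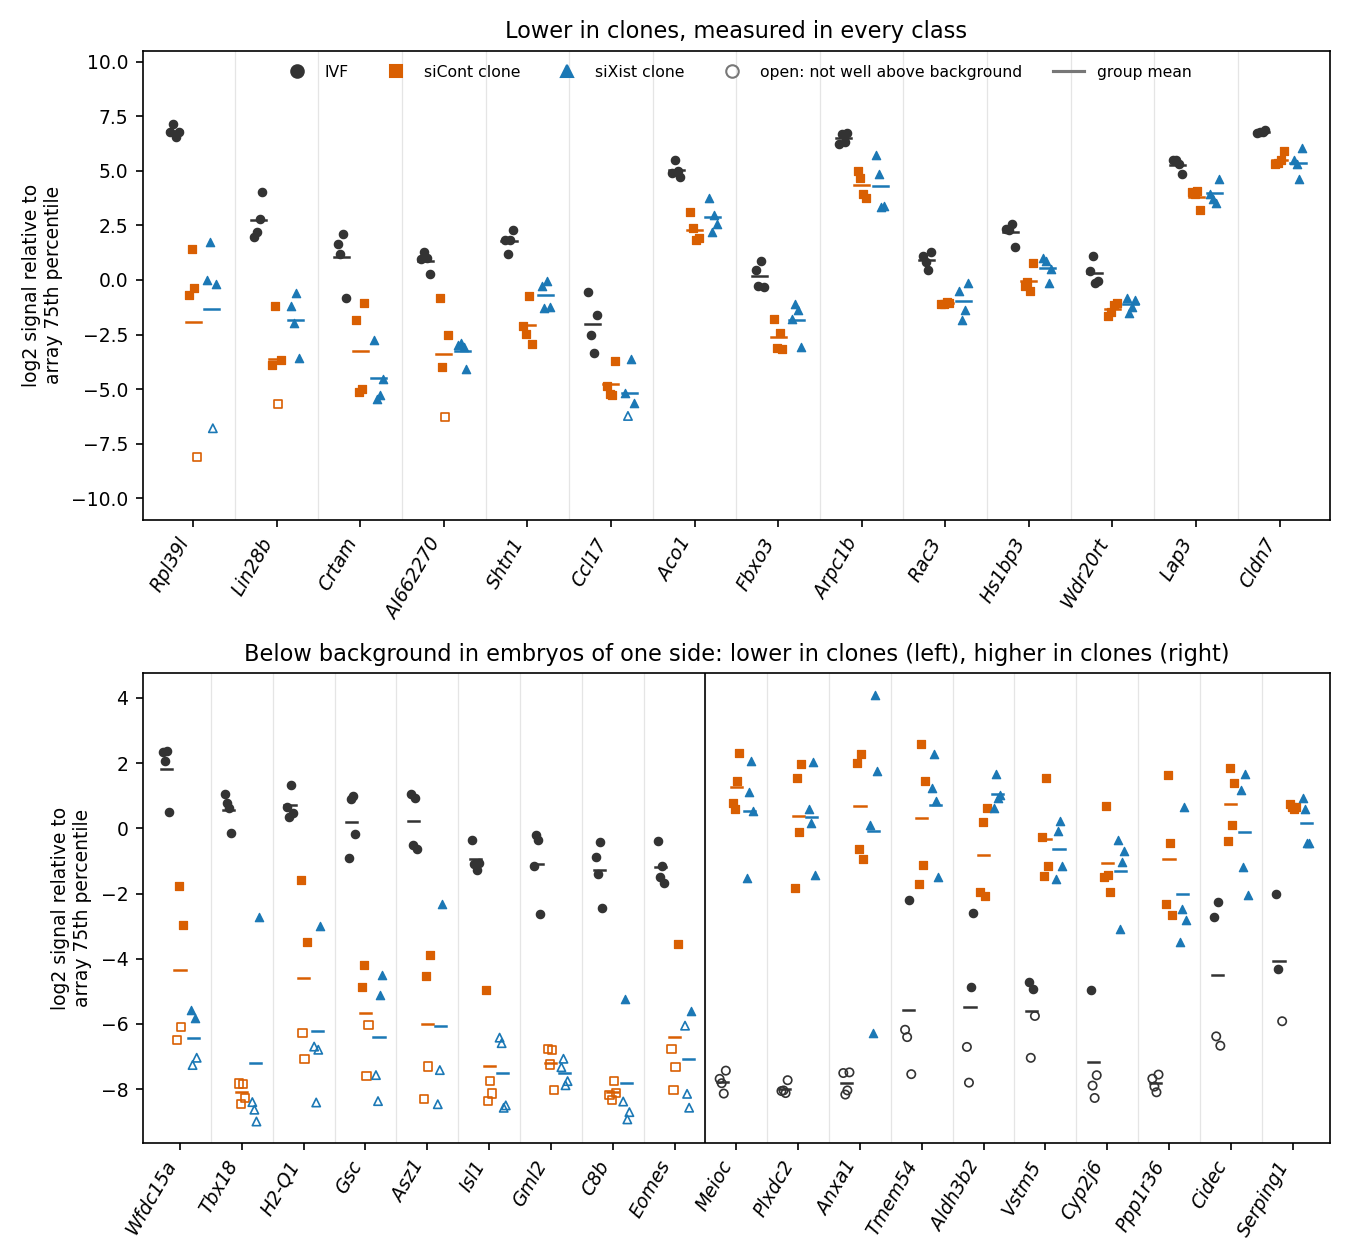
Top, level of the 14 genes lower in clones and above background in every class; bottom, level of genes below background in embryos of 1 side, 9 lower in clones (left of the line) and 10 higher (right). Values are in log2 relative to the array 75th percentile for each embryo, open symbols are not well above background, and bars are group means. In the upper panel Rpl39l shows even IVF embryos and widely spread clones, and in the lower panel most clones at the left and most IVF embryos at the right are open symbols near -8.

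Germline genes that DNA methylation keeps silent in somatic cells moved both ways. Of 17 tested, Meioc was called higher and Asz1 lower (11.8%, against 0.931% of all autosomal genes), 7 were higher and 10 lower, and the list median was -0.64. The list was chosen with earlier results of these data known, so its share of calls is no test of the list. Asz1 stood at 1.06, -0.51, 0.93 and -0.63 in IVF embryos and at -8.46, -7.30 and -2.32 in 7 clones with a value, 3 of them above background. The groups did not overlap, and the difference was -5.23 floored (fitted -6.24, SE 1.17, adjusted p = 0.035). It was lost without any IVF embryo, siCont clone 3 and siXist clones 1 and 2 (adjusted p at most 0.12). The 250 bases before both starts (RefSeq, GRCm38.p6) are shown because these 2 genes of the list moved in opposite directions, and capitals mark CpG.
Meioc, chr11:102665335-102665584, plus strand: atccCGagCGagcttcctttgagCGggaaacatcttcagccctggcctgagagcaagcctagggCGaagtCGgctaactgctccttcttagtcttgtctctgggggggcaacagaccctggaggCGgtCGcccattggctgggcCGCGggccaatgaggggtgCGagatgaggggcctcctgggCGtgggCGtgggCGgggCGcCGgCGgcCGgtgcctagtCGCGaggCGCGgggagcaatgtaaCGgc
Asz1, chr6:18109062-18109311, minus strand: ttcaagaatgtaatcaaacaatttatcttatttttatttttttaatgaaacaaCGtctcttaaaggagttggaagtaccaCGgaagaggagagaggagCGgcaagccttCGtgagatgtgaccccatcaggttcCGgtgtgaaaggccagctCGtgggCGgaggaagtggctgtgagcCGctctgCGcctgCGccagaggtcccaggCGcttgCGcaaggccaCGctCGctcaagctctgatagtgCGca
These bases held 22 CpG before Meioc and 15 before Asz1, beside a median of 15 over the 10456 tested genes with an entry. The array gives no methylation value.

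Imprinted genes gave 3 calls in 3 lists, where 0.931% of all autosomal genes were called and a single call in a short list is a large share. Of 17 tested genes expressed from the maternal allele, Cd81 was called higher (5.88%), with a list median of 0.27. Of 17 expressed from the paternal allele, Impact, a regulator of the translational stress response, was called higher (5.88%), with a list median of -0.01. Impact stood at 2.03, 0.71, 1.82 and 0.31 in IVF embryos and at 2.56, 3.55 and 4.10 in clones, a difference of 2.19 (SE 0.41, adjusted p = 0.0305) that was lost without IVF embryos 2, 3 and 4, siCont clone 2 and all siXist clones in turn (adjusted p at most 0.107). Of 19 genes imprinted by H3K27me3 of the oocyte, Tshz3 was called lower (5.26%), and the list median was 0.49. Tshz3 was below background in all 8 clones and above it in 3 of 4 IVF embryos, at least 4.14-fold lower (adjusted p = 0.00535). Phlda2, Grb10 and Igf2 stood at 2.61 (SE 0.95, adjusted p = 0.254), 3.08 (SE 1.13, adjusted p = 0.257) and -3.96 (SE 1.24, adjusted p = 0.18). The signs of the maternal and H3K27me3 medians turned under the authors' scaling, to -0.29 and -0.07, where the median of all genes was -0.65.

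Lineage genes gave 2 calls in opposite directions. Of 20 tested genes of the trophectoderm, Krt19 was called higher and Eomes lower (10%, against 0.931% of all), and the list median was -0.14. None of 19 pluripotency genes passed the test, but 18 of the 19 were lower in clones, with a median of -0.48 against -0.09 over all genes. The median level of the list ran from 3.79 to 4.90 in IVF embryos and from 3.18 to 4.79 in clones, so the groups overlapped widely. Without adjustment 1 was higher and 5 were lower at p under 0.05, where 6.21% of all autosomal genes were higher and 7.11% lower. Of the 19 genes, 1 was called lower without siCont clone 4. Sox2 stood at -0.73, 1.48, 0.07 and -1.43 in IVF embryos and at -8.84, -7.95 and 0.73 in clones, 2 of which were above background. The clones overlapped the IVF embryos, and the fitted difference of -6.04 (SE 1.69, floored -4.72) had an adjusted p of 0.133. Tfcp2l1, a factor of the naive state, was at -1.35 (SE 0.38, adjusted p = 0.135) without overlap, and Pou5f1 at -0.74 (SE 0.34, adjusted p = 0.377). Under quantile scaling 15 of the 19 were lower and the median was -0.29. Among 12 genes of primitive endoderm no call was made, with Gata6 at -0.78 (SE 0.27, adjusted p = 0.234) and Sparc at 3.18 (SE 0.77, adjusted p = 0.0888).

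Stress and defence lists held single calls, 3.45% to 6.67% of each list against 0.931% of all autosomal genes. Of 28 genes of the p53 response and apoptosis, Gadd45b, a stress-induced growth arrest gene, was called higher (2.47, SE 0.46, adjusted p = 0.0301), and Pmaip1, which encodes the cell death protein Noxa, was 2.44 higher (SE 0.53, adjusted p = 0.0545) with no overlap. The call of Gadd45b was lost without IVF embryos 1, 3 and 4, siCont clones 2 and 4 and siXist clones 1 and 3 (adjusted p at most 0.116). Of 29 genes of heat shock and unfolded protein, Hspb1 was called higher, while Hspa1a was at 2.25 (SE 0.58, adjusted p = 0.109) and Hspa5, the chaperone of the endoplasmic reticulum, at -1.65 (SE 0.43, adjusted p = 0.109). Of 15 interferon genes, Oas1a, of a family of close copies, was called lower (floored -4.28, fitted -5.42, SE 0.90, adjusted p = 0.0157), with the adjusted p at 0.0543 and 0.0676 without IVF embryos 2 and 3. Of 20 genes of RNA interference, Lin28b was called lower.

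Lists with no call by limma covered chromatin, the cell cycle and the maternal store. These were the Sertoli, cumulus and sperm lists, oocyte genes, the 2-cell burst, DNA methylation, H3K9 methylation, Polycomb, histone deacetylases, histone chaperones, the cell cycle, replication licensing, the Hippo and FGF pathways and autophagy. Their medians lay between -0.58 (2-cell burst, 9 genes) and 0.54 (sperm and spermatid, 8 genes). At an unadjusted p under 0.05, 6.21% of all autosomal genes were higher and 7.11% lower. Beside these shares, Sertoli cell genes gave 4 higher and 1 lower of 13, and oocyte genes 3 and 1 of 25. DNA methylation genes gave 2 and 2 of 16, and cell cycle genes 1 and 0 of 35. No other of these lists gave more than 2 either way. The H3K9 demethylase Kdm4c was 1.84 higher with no overlap (SE 0.47, adjusted p = 0.102), and the oocyte gene Oosp1 1.98 higher with no overlap (SE 0.43, adjusted p = 0.0577). In all, 19 of the 122 called genes were in a list and 103 in none, and 13 of the 31 lists held a call.

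**Figure D5:**
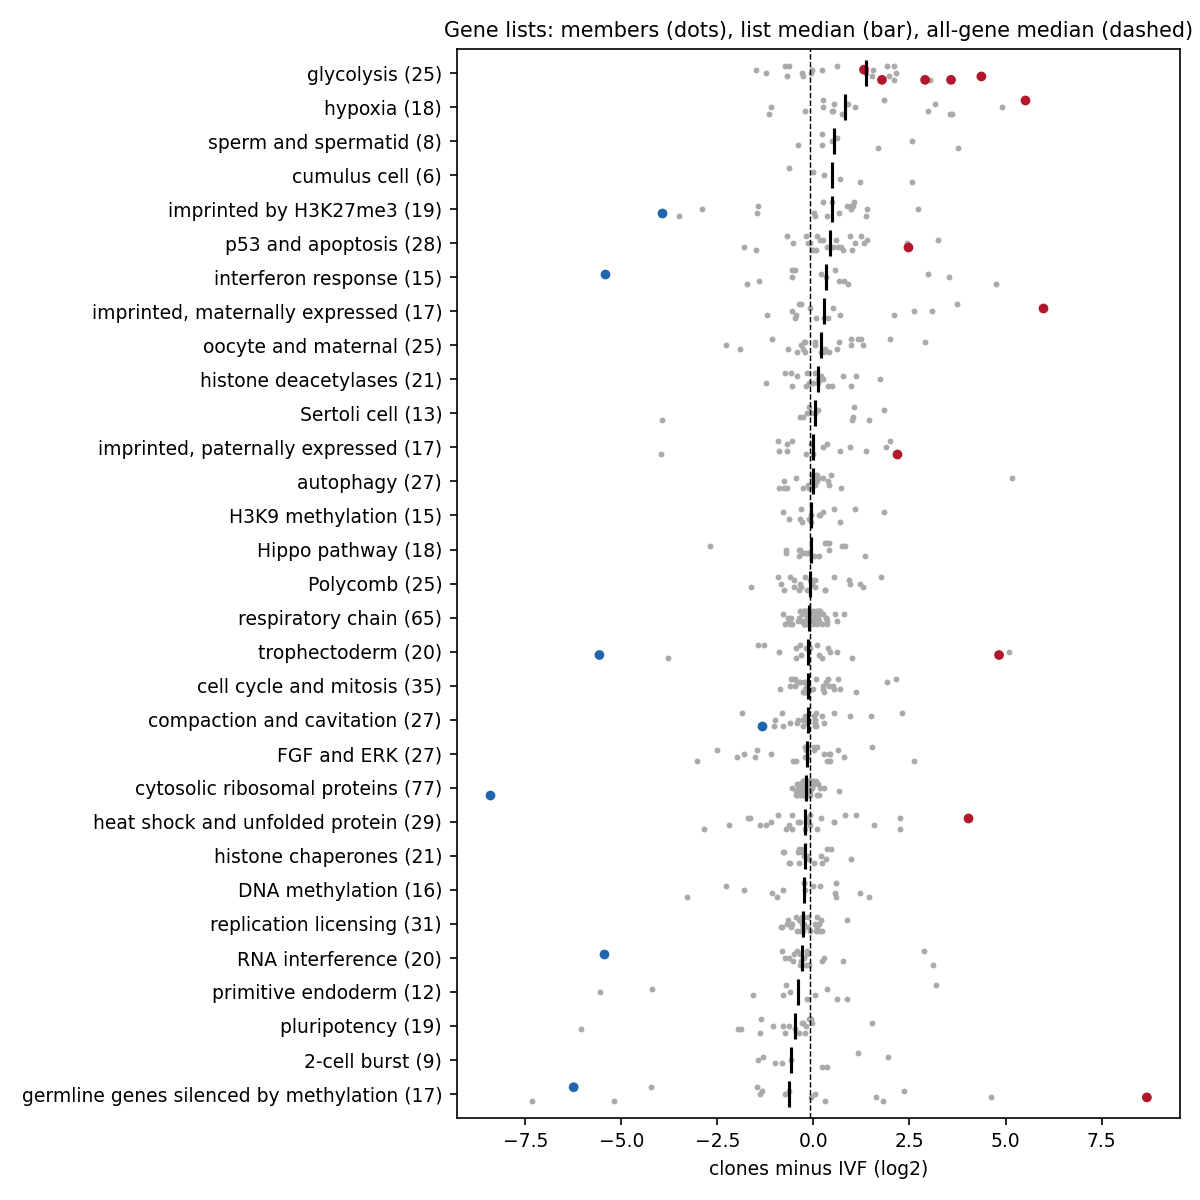
Difference of clones and IVF (x axis, log2) for every tested member of the 31 gene lists, with the number tested in brackets; dots are genes, coloured where called higher (red) or lower (blue), black bars are list medians, and the dashed line is the median of all autosomal genes (-0.09). Glycolysis, with 5 coloured dots and a median of 1.37, lies at the top, and germline genes, with 1 coloured dot on each side, at the bottom. The lowest germline gene (-7.33) was not called.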

How the data were processed

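Per the labels, RNA of single morulae was extracted with TRIzol, amplified linearly by a two-round aminoallyl kit and labelled with Cy3. Per the file headers, the scanner files deposited by the authors hold intensity from Agilent Feature Extraction 10.5.1.1, background-subtracted within the array. The authors' deposited value table is in log2. Against the scanner values, each of its columns differed by an array-wide shift after centring of probes. The basis of that shift is unknown, and column medians ran from -1.62 to 0.75.

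The log2 processed signal minus the array's 75th percentile over non-control probes was used, without spots marked as outliers. Probes well above background on 3 of 4 arrays of any class were kept (of 41174), the brightest kept probe stood for a gene, and other kept probes of the called genes (31 probes of 28 genes) all had the same sign. Accessions named 65.3% of probes through RefSeq (GRCm38.p6). The array grid rests on another build, so only promoter entries carry coordinates. Clones and IVF embryos were compared with limma 3.58.1 in R 4.3.3 (lmFit and eBayes), two-sided, with p-values adjusted over all 19044 features. Only autosomal genes were counted. Called genes without overlap were named: the 15 largest differences each way where every class was above background, the 10 largest bounds each way otherwise, and up to 3 genes per list. A gene that the rule named is not reported here. The groups, gene lists and rule were chosen with earlier results of these data known. Other called genes in the text were chosen after their values were seen.

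On simulated data with 200 genes changed in the clones among 19044 features, the test found 0% of changes of 1 in log2, 40.5% of 2, 54.5% of 3 and 76.0% of 4. False calls numbered 0, 5, 5 and 11. The simulation gave clones and IVF embryos the same normal spread per gene. In the data clones were mostly more spread and dim genes lay near background, so these shares may differ there. The number of arrays limits precision. Alternatives covered background, scaling, filter, probe choice, model, sex of controls, slide, replicate number and left-out embryos. P-values measure the spread between these embryos.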

Additional observations from a re-analysis of the deposited data

Results flagged for a closer look

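For the called genes without overlap that were named for the largest differences or bounds, groups of clones and of IVF embryos were searched by Dixon's test. The test looks for an embryo far from the others. Other genes in the text, among them Tpi1, Pfkl, Pkm, Aldoa and Bhlhe40, were not searched. Of 97 such groups, 9 held one, and chance flags about 1 in 20. In IVF embryo 4, Srd5a1 was at -7.54 (the others from -3.03 to -2.37), Krtdap at -5.38 (from -4.72 to -4.61) and Wfdc15a at 0.51 (from 2.06 to 2.37). In IVF embryo 1, Adgrl2 was at -6.97 (from -2.34 to -1.62). These low values of Srd5a1, Krtdap and Adgrl2 were not well above background. In siCont clone 3, Srd5a1 was at 3.69 (others from -0.14 to 1.37) and Ppl at -1.41 (from 0.75 to 1.87). In siXist clone 1, Meioc was at -1.54 (from 0.52 to 2.30). In siXist clones 4 and 2, Tbx18 was at -2.73 (from -8.99 to -7.83) and C8b at -5.24 (from -8.93 to -7.75), the only clone above background in each gene.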

How the results depend on the processing

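Over 27 alternatives all of the 122 genes with a value kept their direction (94 had one under the stricter filter), while the number called moved. In the 106 genes without overlap the direction could not turn where embryos were only left out. There the kept direction was fixed in advance and supports nothing. Against 122 genes (71 higher, 51 lower), the authors' deposited values gave 59 (13 higher, 46 lower), array weights 403 (197 and 206), the male IVF embryos alone 24 (10 and 14), siCont clones only 63 (34 and 29), siXist clones only 75 (39 and 36), and slide as a random block 64 (38 and 26). Normexp gave 172 (81 lower) and a stricter filter 84 (18 lower). No filter gave 89, quantile normalisation 120, a floor 140, the mean of probes 130, means per class and sex 118, and robust estimation with a trend 154. Leaving out 1 embryo gave 57 to 145 genes, 32 to 87 higher and 25 to 58 lower; without IVF embryos 1, 2, 3 and 4 there were 66, 76, 61 and 57. Fewer controls leave fewer degrees of freedom; otherwise the cause was not tested. Embryos of the same number did not pair: 12 same-number correlations ran from -0.15 to 0.07, and 1 of 12 arrays correlated best with its own number. The replicate block gave 60 calls (36 higher, 24 lower), 55 of them among the 122. Tnp1 (-0.14 with the authors' values) and Ptx3 (-1.18 with siXist clones only), neither called, reversed. Of 3503 values of named genes under these alternatives, 3022 kept direction and side of the threshold, 445 lost the call and 34 gained it. Many named genes were list members not called in the main fit, which could not lose a call and counted as kept by staying uncalled. The 3022 therefore does not measure how well the calls held. List medians moved by less than 1 SD of the IVF embryos in 70 of 93 cases (31 lists under normexp, quantile and the authors' scaling). Signals near background limit the size of the genes dim on 1 side.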

Other observations

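Among called genes that belong to no list and fall outside the naming rule, several encode enzymes that handle reactive or foreign compounds; they were picked after their values were seen and carry no test as a group. Gsta4, a glutathione transferase, stood at -2.76, -2.11, -2.09 and -3.56 in IVF embryos and at -0.42, -0.10 and 0.71 as the lowest, median and highest clone, a difference of 2.63 (SE 0.33, adjusted p = 0.00323). All clones were above all IVF embryos. Its relatives Gsta1 and Gsta2, whose probes may share transcripts, were 2.45 and 2.40 higher, Ephx1, the microsomal epoxide hydrolase, 1.82 higher, and Ptgr1, a reductase of prostaglandins and reactive aldehydes, 1.65 higher from a bright level of 5.29 in IVF embryos. Cyp2j11 and Cyp2j13 were at least 2.86-fold and 4.29-fold higher, being below background in all IVF embryos. With 1 embryo left out, the calls of Gsta1 (IVF embryos 3 and 4, adjusted p at most 0.0913), Gsta2 (each IVF embryo, siCont clone 4, siXist clone 3, at most 0.108), Ephx1 (IVF embryos 2, 3 and 4, at most 0.0601) and Ptgr1 (IVF embryos 1, 3 and 4, at most 0.0806) were lost, as were those of Cyp2j11 (each IVF embryo, siXist clone 3, at most 0.0804) and Cyp2j13 (each IVF embryo, siCont clone 4, siXist clones 1, 3 and 4, at most 0.114). The call of Gsta4 held.

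Other called genes picked in the same way were feedback regulators and clock genes. Nfkbia, the inhibitor of NF-kappaB, was 2.38 higher (SE 0.36), Socs3, the inhibitor of cytokine signalling, 2.78 higher (SE 0.55, adjusted p = 0.0354), Arrdc3, an arrestin-like protein, 3.23 higher (SE 0.49), and Cry2, a repressor of the daily clock, 3.80 higher (SE 0.54). Fam162a and Ero1a, both known to respond to low oxygen but absent from the hypoxia list used here, were 3.78 (SE 0.56, adjusted p = 0.00969) and 2.07 higher (SE 0.35, adjusted p = 0.0188). Socs3 was lost without any 1 of the IVF embryos, siCont clones 1 and 4 and siXist clones 1, 2 and 4 (adjusted p at most 0.124). Ero1a was lost without IVF embryos 1, 2 and 3 in turn (adjusted p at most 0.0676).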
